A study of Mus musculus with 16 samples.

Results

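The 40 genes described here act in mitosis: they encode regulators of the G2/M transition, kinetochore and spindle proteins, cytokinesis factors and the proliferation markers *Mki67* and *Top2a*. They were chosen by symbol, and each of the 40 symbols matched a single identifier among the 56748 mouse genes counted. Their transcripts were measured by RNA-Seq in TM4 cells, an established mouse line with Sertoli-like properties. The cells received 2.5 µg of plasmid per well and were lysed 24 h later. The plasmid carried *gdf6Y*, the male sex-determining gene of the turquoise killifish (gdf6Y, 5 samples), or the mutant variant gdf6Y del9, which has an in-frame deletion in the prodomain (del9, 5 samples), or no insert (EV, 6 samples). All 3 groups thus share the cell line, the transfection reagent and the vector backbone, and RNA was isolated from whole wells. Gdf6Y is a fish ligand of the TGF-β family in a mouse line, and the transgene itself was not analysed here. The labels do not say whether replicates came from separate cultures, so that p-values speak at most for the spread between these samples.

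Entry into mitosis is driven by the kinase CDK1 bound to cyclin B, and the chromosomes are then attached to the spindle through the kinetochores. The spindle assembly checkpoint holds back the anaphase-promoting complex until all kinetochores are attached, after which separase cuts cohesin and the cell divides. Most of these genes are transcribed periodically, with a peak in G2 and M, under the control of the MuvB complexes and FOXM1, which act at the cell cycle homology region (CHR), and of NF-Y, which binds the CCAAT box. In the testis, Sertoli cells divide before puberty and then leave the cell cycle, whereas TM4 cells proliferate in culture.

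The promoters of the members share sequence features that did not enter their choice. RefSeq windows of 300 bases, from 250 before to 50 after a transcription start (GRCm38.p6), were at hand for 33 of the 40 genes. *Ccna2*, *Cdc25c*, *Aurkb*, *Incenp*, *Kif20a*, *Tpx2* and *Foxm1* had no entry. The CHR letters TTTGAA or TTCGAA, searched on both strands, were present in 26 of the 33 genes (78.8%) and in 21.7% of the 27025 genes with a window. CCAAT, also on both strands and counted whether or not it overlapped the CHR letters, was present in 25 of the 33 (75.8%) and in 41.1% of all genes. Both motifs stood in the same window in 23 genes (69.7%, against 8.61% of all genes). *Birc5*, *Mad2l1*, *Nuf2*, *Pttg1* and *Nusap1* had neither set of letters in this window, which says nothing of the factors that bind there. *Hmmr*, *Ect2* and *Bub3*, called against EV with del9 alone, also had an entry but are not printed. The windows below belong to the members called in both comparisons with EV and, of those called with del9 alone, to *Cdk1* and *Cdc20*. They read 5′ to 3′ on the gene's strand, with both motifs in capitals. All lie on the minus strand except those of *Cenpe* and *Birc5*.
Mki67 (chr7:135716330-135716629): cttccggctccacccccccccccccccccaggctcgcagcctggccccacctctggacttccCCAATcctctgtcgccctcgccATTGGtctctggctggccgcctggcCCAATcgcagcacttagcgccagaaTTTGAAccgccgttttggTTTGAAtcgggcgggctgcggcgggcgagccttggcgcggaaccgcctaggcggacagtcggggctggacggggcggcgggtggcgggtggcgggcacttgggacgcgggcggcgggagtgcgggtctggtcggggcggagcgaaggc
Top2a (chr11:99024140-99024439): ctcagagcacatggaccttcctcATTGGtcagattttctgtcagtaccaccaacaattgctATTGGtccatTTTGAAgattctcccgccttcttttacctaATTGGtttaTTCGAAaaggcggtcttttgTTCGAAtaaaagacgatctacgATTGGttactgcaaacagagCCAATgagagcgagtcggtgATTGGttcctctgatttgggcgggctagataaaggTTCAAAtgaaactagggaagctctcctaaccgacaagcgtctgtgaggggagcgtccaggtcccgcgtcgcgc
Cenpf (chr1:189688037-189688336): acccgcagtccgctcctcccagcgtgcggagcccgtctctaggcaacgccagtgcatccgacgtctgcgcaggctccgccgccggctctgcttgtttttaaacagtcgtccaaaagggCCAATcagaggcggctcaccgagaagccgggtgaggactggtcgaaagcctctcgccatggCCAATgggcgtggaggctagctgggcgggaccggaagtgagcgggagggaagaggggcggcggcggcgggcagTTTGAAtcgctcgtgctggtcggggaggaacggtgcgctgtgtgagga
Cenpe (chr3:135212313-135212612): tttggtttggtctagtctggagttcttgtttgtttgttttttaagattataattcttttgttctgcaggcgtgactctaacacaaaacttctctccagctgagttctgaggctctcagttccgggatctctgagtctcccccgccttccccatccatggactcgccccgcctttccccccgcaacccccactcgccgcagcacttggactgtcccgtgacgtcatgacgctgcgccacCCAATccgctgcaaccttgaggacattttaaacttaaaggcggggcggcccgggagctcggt
Birc5 (chr11:117848987-117849286): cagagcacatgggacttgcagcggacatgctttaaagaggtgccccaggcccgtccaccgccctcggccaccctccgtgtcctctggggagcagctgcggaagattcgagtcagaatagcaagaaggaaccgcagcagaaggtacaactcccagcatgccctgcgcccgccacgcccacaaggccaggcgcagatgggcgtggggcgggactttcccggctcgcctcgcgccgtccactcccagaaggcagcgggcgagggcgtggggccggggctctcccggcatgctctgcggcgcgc
Cdk1 (chr10:69352863-69353162): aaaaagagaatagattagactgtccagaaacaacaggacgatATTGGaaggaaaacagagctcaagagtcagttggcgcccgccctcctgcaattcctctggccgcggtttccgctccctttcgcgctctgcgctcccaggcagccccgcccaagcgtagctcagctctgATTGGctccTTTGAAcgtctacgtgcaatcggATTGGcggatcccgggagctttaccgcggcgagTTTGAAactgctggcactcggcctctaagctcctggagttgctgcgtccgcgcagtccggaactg
Cdc20 (chr4:118437294-118437593): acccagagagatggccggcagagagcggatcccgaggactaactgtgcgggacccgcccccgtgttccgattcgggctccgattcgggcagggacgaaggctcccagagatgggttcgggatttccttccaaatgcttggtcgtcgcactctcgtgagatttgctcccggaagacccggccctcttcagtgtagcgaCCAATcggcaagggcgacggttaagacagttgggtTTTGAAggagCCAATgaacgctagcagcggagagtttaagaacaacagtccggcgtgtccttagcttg
*Top2a* held the most motifs of these windows, with 4 CHR and 6 CCAAT matches, and *Birc5* held none. The motifs did not separate the directions of change described below: both stood in 1 window in 5 of the 6 members called lower in any comparison, in 3 of the 4 called higher, and in 15 of the 23 others with an entry.

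Between 21486850 and 26444903 reads per sample were counted on genes, and no member was short of reads: the lowest mean normalized count in EV was 1408, for *Cdc25c*. The standard error of a member's log2 fold change in edgeR's model was at most 0.038 in each of the 3 comparisons. It did not follow the spread of every member. For gdf6Y against EV it was 0.026 for *Mki67* and 0.028 for *Cenpf*, where DESeq2 gave 0.072 and 0.069. *Gata4*, *Kitl*, *Dhh*, *Inha* and *Sox9*, markers of Sertoli cells, had mean normalized counts of 831, 707, 91.9, 35.8 and 43.0 in EV. The defining marker *Wt1* had no count in any sample, *Fshr*, *Cldn11* and *Nr5a1* were at or near 0, and *Amh* had a mean count of 5.49. Markers of germ, Leydig, endothelial and blood cells summed, list by list, to at most 2.76 CPM (counts scaled to a common library total) in any sample. *Acta2* and *Tagln*, which mark peritubular and smooth muscle cells, had mean counts of 4530 and 4110 in EV, while *Myh11* was below 1. The 5 markers of that list summed to 345 to 359 CPM with EV, 373 to 397 with gdf6Y and 359.5 to 392.1 with del9, and the 10 Sertoli markers to 68.2 to 71.8, 60.7 to 65.7 and 63.7 to 70.3 CPM. *Tagln* was called higher against EV with both plasmids and *Gata4* lower with gdf6Y, whereas the other listed markers did not pass the test, and the part of these shifts in the results below was not tested. Replicate 1 of gdf6Y stood apart from its group: over all genes its counts differed from those of the other gdf6Y samples with a chi-square of 7.60 to 11.5 per degree of freedom, against 1.41 to 6.48 between all other replicates of a group.

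The members were abundant, and their levels spanned about an order of magnitude. As reads scaled to library size and to the length of the canonical transcript (RPKM), the median member stood at 56.1 in EV, while the median of all genes with a count was 0.188. *Ube2c*, which encodes the ubiquitin-conjugating enzyme of the anaphase-promoting complex, had the highest level at 226 ± 4.56 RPKM (SD, n = 6), followed by *Top2a* at 177 ± 4.06 and *Ccna2*, which encodes cyclin A2, at 157 ± 4.16. The lowest levels were 18.1 ± 0.654 RPKM for the chromokinesin gene *Kif4* and 18.6 ± 0.532 for the checkpoint gene *Bub3*. Neighbours in this order were often too close to rank: in 19 of 39 neighbouring pairs the levels differed by less than the sum of their SDs. *Cdk1* stood in the middle at 51.4 ± 1.5 RPKM, beside *Mki67* at 55.6 ± 2.41.

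**Figure D1:**
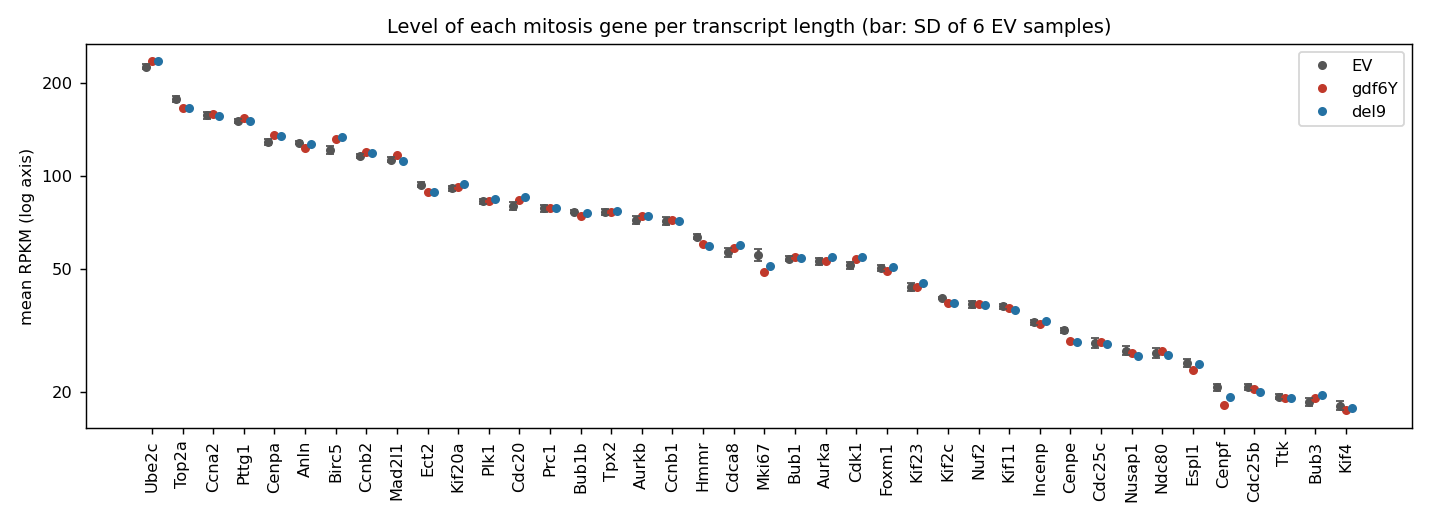
Mean RPKM of the 40 members (log axis) in EV, gdf6Y and del9, in the order of their level in EV, with bars for the SD of the 6 EV samples. Levels run from 226 (*Ube2c*) to 18.1 (*Kif4*) in EV, and the points of the 3 groups lie close together for each gene.

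As a whole, the mitosis genes stood at the same level in the 3 groups to within a few percent. The mean log2 CPM over the 40 members came to 7.563 ± 0.017 in the EV samples (SD, n = 6). The gdf6Y samples had 7.553 ± 0.011 (SD, n = 5) and the del9 samples had 7.561 ± 0.022 (SD, n = 5). By sample, the score was between 7.540 and 7.583 with EV (median 7.565). It was 7.570, 7.557, 7.548, 7.547 and 7.543 in gdf6Y replicates 1 to 5. In del9 replicates 1 to 5 it was 7.568, 7.590, 7.539, 7.539 and 7.569. The groups overlapped, and no difference between group means exceeded the smallest SD within a group. Between same-numbered samples, gdf6Y differed from EV by a mean of −0.015 ± 0.017 (SD, 5 pairs, 4 of them negative and the other 0 to 3 decimals), and del9 differed from EV by −0.007 ± 0.012 (4 of 5 negative). The difference between gdf6Y and del9 was −0.008 ± 0.020, with 3 pairs positive and 2 negative. The summed CPM of the members, in which the abundant genes weigh most, was 9244 ± 125 with EV, 9056 ± 116 with gdf6Y and 9137 ± 192 with del9, and these ranges overlapped too (9069 to 9421, 8928 to 9227 and 8944 to 9422). The members took between 0.884% and 0.940% of all counts. In bulk RNA, fewer cells in G2 and M and less RNA of these genes per cell cannot be told apart.

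**Figure D2:**
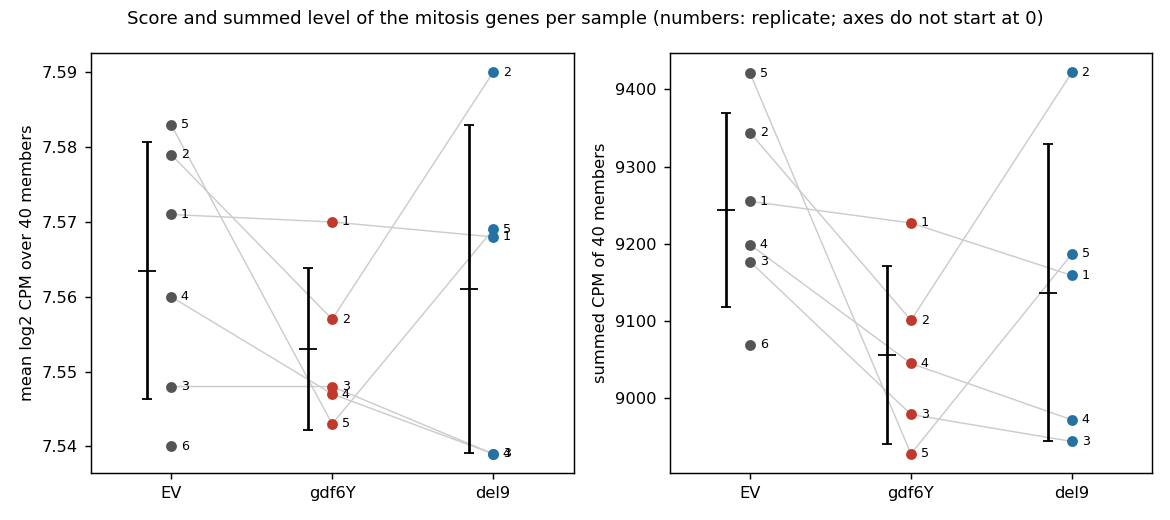
Mean log2 CPM (left) and summed CPM (right) of the 40 members in each sample of EV, gdf6Y and del9, with replicate numbers, lines between same-numbered samples and bars for the mean and SD. The 3 groups overlap in both panels, with scores of 7.540 to 7.583, 7.543 to 7.570 and 7.539 to 7.590.

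Behind the level score, single members moved in both directions, and all of them by little. Against EV, gdf6Y called 1 member higher (*Birc5*) and 4 lower (*Mki67*, *Cenpf*, *Cenpe* and *Top2a*), that is 12.5% of the 40, where 5.08% of the 26316 genes tested were called. By direction, 1.7% of all genes were higher and 3.38% lower. Members are well above the average gene in counts, and of the 4287 genes whose mean count was no lower than that of *Cdc25c* 20% were called, 6.88% higher and 13.1% lower. For del9 against EV, 4 members were higher (*Birc5*, *Cdk1*, *Cdc20* and *Bub3*) and 6 lower (*Mki67*, *Cenpe*, *Cenpf*, *Hmmr*, *Top2a* and *Ect2*), or 25% of the members, against 9.25% of all 26226 genes tested (4.82% higher, 4.43% lower) and 30% of the 4287 genes of like abundance (18.4% higher, 11.7% lower). Between gdf6Y and del9 no member passed, where 1.01% of 25878 genes did (0.599% higher, 0.41% lower) and 2.78% of those of like abundance (1.12% higher, 1.66% lower). DESeq2 called 8 members for gdf6Y against EV, 0 for gdf6Y against del9 and 9 for del9 against EV, where it called 4.86%, 0.313% and 7.82% of all genes. With the replicate number as a block, 7.83%, 2.55% and 11.4% of all genes were called in the same order of comparisons, and of the members 3 were higher and 8 lower, 0 higher and 2 lower, and 6 higher and 6 lower. The median log2 fold change of the members was 0.006 for gdf6Y against EV, 0.001 for del9 against EV and −0.002 for gdf6Y against del9, beside −0.002, −0.005 and 0.010 over all genes tested. In edgeR's model, no 95% interval of a member reached beyond 0.239 on the log2 scale in either direction for gdf6Y against EV. The bounds were 0.191 for del9 against EV and 0.134 between the plasmids. They hold for that model only, as DESeq2 gave larger standard errors for *Mki67* and *Cenpf* with gdf6Y against EV (0.072 and 0.069). The gdf6Y and EV samples did not overlap for 6 members (*Cdk1*, *Birc5* and *Ube2c* above EV, *Top2a*, *Anln* and *Kif2c* below), the del9 and EV samples for 3 (*Cdk1* and *Birc5* above, *Cenpe* below) and the gdf6Y and del9 samples for none, where 2.61%, 3.77% and 1.29% of all genes did not overlap. The shares given for DESeq2, the block and the overlap were taken over all genes and not over those of like abundance. They therefore cannot show an excess among the members. The block also rests on replicate numbers that did not meet the criterion for pairing given further below. The comparisons of both plasmids with EV share the 6 EV samples and are not independent of each other.

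**Figure D3:**
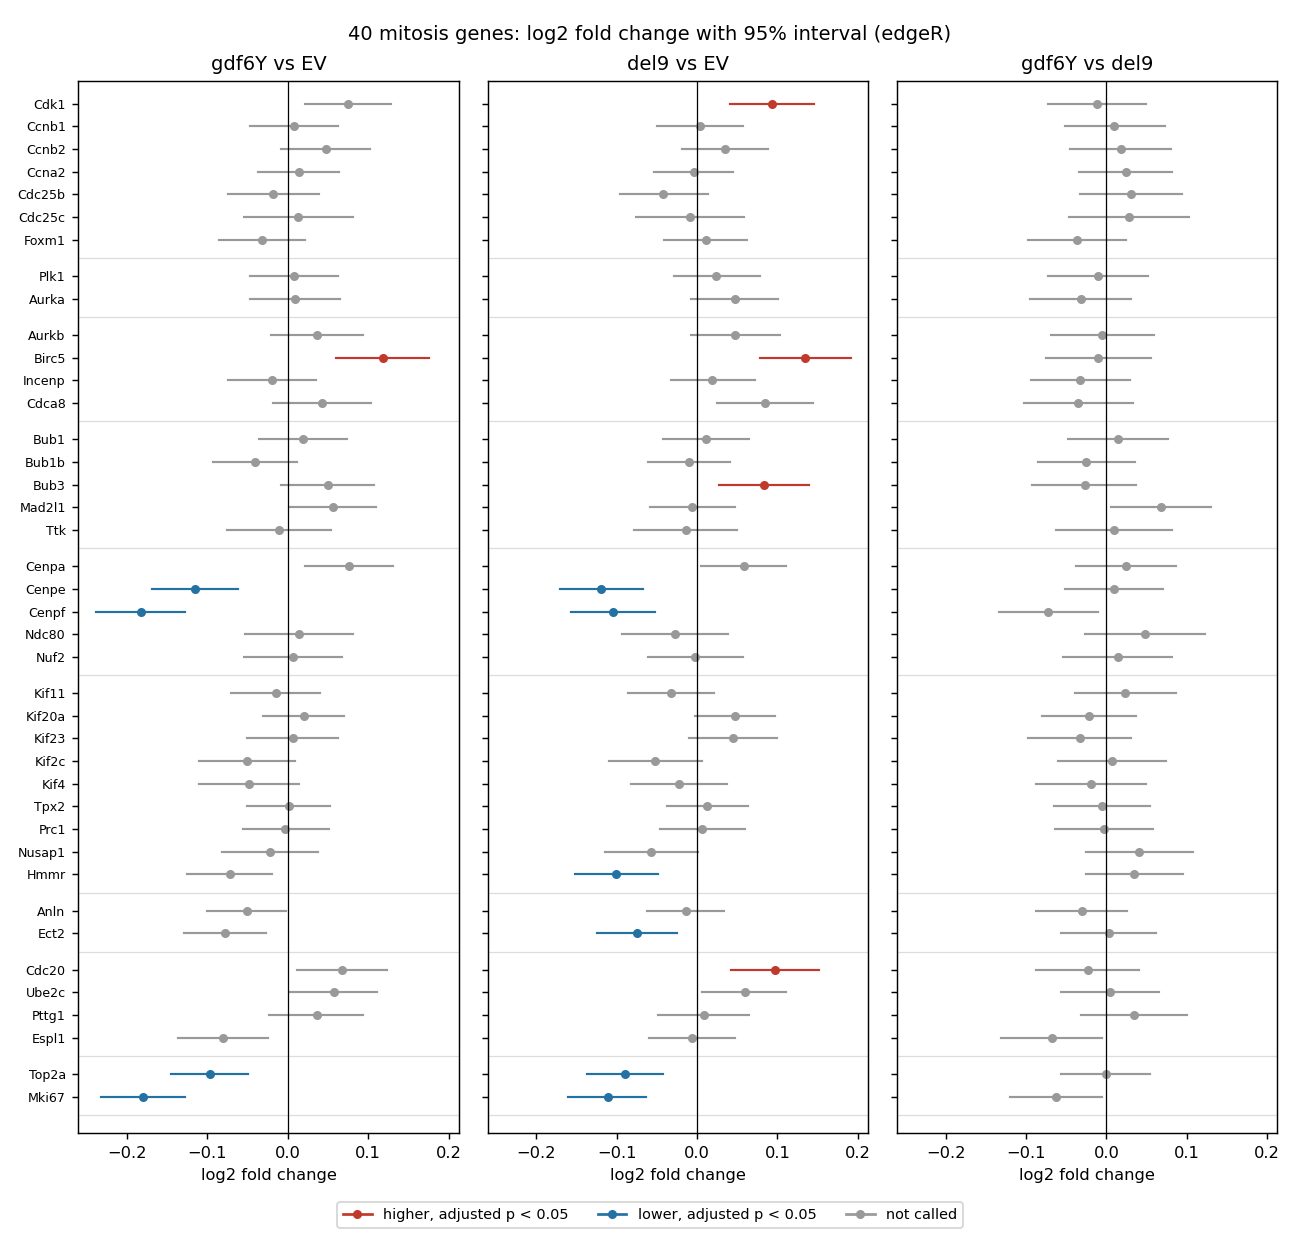
Log2 fold change (point) and 95% interval (line) of the 40 members, grouped by role, for gdf6Y against EV, del9 against EV and gdf6Y against del9, with members at an adjusted p-value below 0.05 in colour. Against EV, 5 and 10 members are coloured and none lies beyond −0.183 or 0.134, while no member is coloured in the third panel.

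*Mki67* and *Top2a*, the proliferation marker that coats mitotic chromosomes and the topoisomerase that untangles them, were lower with both plasmids. *Mki67* (chromosome 7 of GRCm39, 135291513 to 135318299) had normalized counts between 13283 and 14968 in EV (median 13910). Its counts were 14714, 12787, 11380, 11799 and 11306 in gdf6Y replicates 1 to 5 and 12550, 15001, 12086, 12114 and 13218 in del9 replicates 1 to 5. Replicate 1 of gdf6Y lay within the EV range and replicate 2 of del9 just above it, while the other 8 samples of both groups lay below the lowest EV sample. The log2 fold change against EV was −0.18 ± 0.026 (SE, adjusted p = 3.93e-09 in edgeR's test) with gdf6Y and −0.11 ± 0.025 (adjusted p = 0.000257) with del9. DESeq2 gave adjusted p-values of 0.0733 and 0.169 for the same changes, so that neither call held in that tool.

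*Top2a* (chromosome 11, 98883769 to 98915062) had EV counts between 22312 and 23732 (median 22820). With gdf6Y they were 21963, 21849, 20726, 21398 and 21015 and with del9 21667, 22475, 20501, 21081 and 21679. All gdf6Y samples were below all EV samples, and of the del9 samples only replicate 2 reached the EV range. *Top2a* changed by −0.097 ± 0.024 with gdf6Y (adjusted p = 0.00297) and −0.090 ± 0.024 with del9 (adjusted p = 0.00392), or −6.52% and −6.05%, and DESeq2 called it in both comparisons as well (adjusted p = 0.000494 and 0.0018).

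Of the 5 kinetochore and centromere genes, both large coiled-coil proteins of the outer kinetochore fell and the other 3 did not pass. *Cenpf* (chromosome 1, 189372752 to 189420315), whose product builds up in G2 and binds the kinetochore in mitosis, had EV counts between 5520 and 5908 (median 5755). Its counts were 6103, 4858, 4733, 4795 and 4743 with gdf6Y and 5222, 5982, 5181, 4925 and 5322 with del9. Replicate 1 of gdf6Y and replicate 2 of del9 stood above all EV samples, and the other 8 samples stood below them. The change against EV was −0.18 ± 0.028 with gdf6Y (adjusted p = 3.75e-08, but 0.0552 in DESeq2) and −0.105 ± 0.027 with del9 (adjusted p = 0.00221, and 0.0289 in DESeq2). *Cenpe* (chromosome 3, 134918298 to 134979372), a kinesin that carries chromosomes to the metaphase plate, had EV counts between 6060 and 6334 (median 6150). Here the counts were 6103, 5602, 5460, 5875 and 5468 with gdf6Y and 5828, 5962, 5392, 5568 and 5666 with del9. The del9 samples were all below the EV samples, and of the gdf6Y samples again only replicate 1 reached the EV range. *Cenpe* changed by −0.12 ± 0.027 (adjusted p = 0.00132) and −0.12 ± 0.026 (adjusted p = 0.000276). *Cenpa*, the centromeric histone, had values of 0.076 (adjusted p = 0.0941) with gdf6Y and 0.058 (adjusted p = 0.2) with del9, and the NDC80 complex genes *Ndc80* and *Nuf2* lay between −0.027 and 0.014 in both.

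In the chromosomal passenger complex, which corrects faulty attachments and guides cytokinesis, the survivin gene *Birc5* rose with both plasmids. *Birc5* (chromosome 11, 117740040 to 117746581) had the largest positive change of all members. Its EV counts were between 2788 and 3026 (median 2955). They were 3080, 3146, 3319, 3140 and 3250 with gdf6Y and 3207, 3210, 3250, 3149 and 3288 with del9. Every gdf6Y and every del9 sample was above every EV sample, and the change was 0.12 ± 0.030 (8.53%, adjusted p = 0.00305) with gdf6Y and 0.13 ± 0.029 (9.76%, adjusted p = 0.000139) with del9. Its partners did not pass. *Aurkb*, the kinase of the complex, had EV counts of 3353 to 3633 (median 3496), gdf6Y counts of 3484, 3603, 3536, 3583 and 3681 and del9 counts of 3536, 3597, 3629, 3462 and 3786. These groups overlapped, with log2 differences of 0.036 ± 0.029 (adjusted p = 0.57) and 0.047 ± 0.028 (adjusted p = 0.378). The borealin gene *Cdca8* had 0.043 and 0.084 (adjusted p = 0.57 and 0.0571), and the scaffold gene *Incenp* had −0.020 and 0.019.

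Of the 7 genes of the CDK1 axis, *Cdk1* rose with del9, and no other passed in any comparison. *Cdk1* (chromosome 10, 69170976 to 69236595) had EV counts of 5338 to 5736 (median 5517). With gdf6Y the counts were 5836, 5779, 5813, 5745 and 5978, and with del9 5741, 5882, 5945, 5843 and 6089. All 10 lay above all EV samples, although the lowest of them exceeded the highest EV sample by a few counts only. The change was 0.093 ± 0.027 with del9 (6.67%, adjusted p = 0.00813) and 0.075 ± 0.027 with gdf6Y, which did not pass (adjusted p = 0.0925, and 0.023 in DESeq2). *Ccnb1*, the cyclin B partner of CDK1, had EV counts of 4312 to 4641 (median 4462), gdf6Y counts of 4448, 4548, 4476, 4497 and 4443 and del9 counts of 4511, 4435, 4417, 4395 and 4571. Both sets lay inside the EV range, with differences of 0.008 ± 0.028 and 0.004 ± 0.027 and 95% intervals from −0.047 to 0.063 and from −0.050 to 0.057. *Foxm1*, the transcription factor of the G2/M programme, had EV counts of 6126 to 6551 (median 6323), gdf6Y counts of 6302, 6248, 6336, 6188 and 5881 and del9 counts of 6525, 6392, 6382, 6304 and 6257. Its differences were −0.032 ± 0.027 (adjusted p = 0.57) and 0.011 ± 0.026 (adjusted p = 0.852). The other cyclin and phosphatase genes of this group (*Ccnb2*, *Ccna2*, *Cdc25b* and *Cdc25c*) lay between −0.042 and 0.047 in both comparisons with EV.

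The mitotic kinases outside the checkpoint did not pass. *Plk1*, which acts from mitotic entry to cytokinesis, had EV counts of 4433 to 4672 (median 4542), gdf6Y counts of 4546, 4628, 4698, 4485 and 4463 and del9 counts of 4604, 4738, 4662, 4454 and 4604. The groups overlapped, with differences of 0.008 ± 0.028 (95% interval −0.047 to 0.063) and 0.024 ± 0.027 (−0.029 to 0.078). *Aurka*, the kinase of the spindle poles, had 0.009 and 0.047. Among the 5 genes of the spindle assembly checkpoint, only *Bub3* passed, in del9 against EV. *Bub3* (chromosome 7, 131161880 to 131178553), which recruits BUB1 and BUBR1 to the kinetochore, had EV counts of 3207 to 3427 (median 3360), gdf6Y counts of 3465, 3337, 3514, 3354 and 3560 and del9 counts of 3383, 3496, 3606, 3534 and 3604. With 1 del9 sample inside the EV range the change was 0.083 ± 0.028 (adjusted p = 0.0401), and it lost the call when any of 6 of the 11 samples was left out. In edgeR's test the call was also lost with DESeq2's size factors (adjusted p = 0.0654), with total counts (0.14) and with all 3 groups in one model (0.0766). For gdf6Y the difference of *Bub3* was 0.050 ± 0.029 (adjusted p = 0.449). *Bub1*, *Bub1b*, *Ttk* and *Mad2l1*, the other kinases and the anaphase inhibitor of the checkpoint, lay between −0.041 and 0.056 against EV.

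Of the 4 genes of anaphase and its trigger, *Cdc20* passed in del9 against EV. *Cdc20* (chromosome 4, 118290098 to 118294610), the activator of the anaphase-promoting complex, had EV counts of 3546 to 3820 (median 3628), gdf6Y counts of 3770, 3829, 3969, 3753 and 3805 and del9 counts of 3901, 3886, 3875, 3766 and 4079. Of the del9 samples 4 were above all EV samples. The change was 0.097 ± 0.028 with del9 (adjusted p = 0.00927) and 0.068 ± 0.029 with gdf6Y (adjusted p = 0.197). Without del9 replicate 5, *Cdc20* and *Cdk1* no longer passed (adjusted p = 0.101 and 0.0676). *Ube2c* had 0.057 and 0.059 (adjusted p = 0.288 and 0.186), and the securin gene *Pttg1* and the separase gene *Espl1* had 0.036 and −0.080 with gdf6Y and 0.008 and −0.006 with del9.

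Among the 9 kinesins and microtubule-associated proteins *Hmmr* fell, and of the 2 cytokinesis genes *Ect2* did, both with del9. *Hmmr* (chromosome 11, 40592167 to 40624288), which organises the spindle poles, had EV counts of 6001 to 6336 (median 6272), gdf6Y counts of 6020, 5822, 5786, 6189 and 5822 and del9 counts of 6002, 5945, 5563, 5859 and 5668. EV replicate 6 lay below the other EV samples, which were all at 6252 or more, and no gdf6Y or del9 sample reached that level. The change was −0.10 ± 0.026 with del9 (adjusted p = 0.00331) and −0.072 ± 0.027 with gdf6Y (adjusted p = 0.11, and 0.023 in DESeq2). *Ect2* (chromosome 3, 27151371 to 27208029), which activates RhoA at the division plane, had EV counts of 8976 to 9460 (median 9312), gdf6Y counts of 8725, 8632, 8865, 9235 and 8521 and del9 counts of 8794, 9080, 8481, 8987 and 8696. Its values were −0.075 ± 0.025 with del9 (adjusted p = 0.0372, above the threshold without any of 6 of the 11 samples) and −0.078 ± 0.026 with gdf6Y (adjusted p = 0.0533, and 0.00952 in DESeq2). The 2 fold changes were alike in size and fell on opposite sides of the threshold, and the direct comparison of gdf6Y with del9 gave 0.003 ± 0.030 for *Ect2* and 0.034 ± 0.031 for *Hmmr*. The anillin gene *Anln*, which encodes a scaffold of the contractile ring, had −0.051 (adjusted p = 0.3) and −0.014. The 8 other kinesin and spindle genes (*Kif11*, *Kif20a*, *Kif23*, *Kif2c*, *Kif4*, *Tpx2*, *Prc1* and *Nusap1*) lay between −0.057 and 0.047 in both comparisons.

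**Figure D4:**
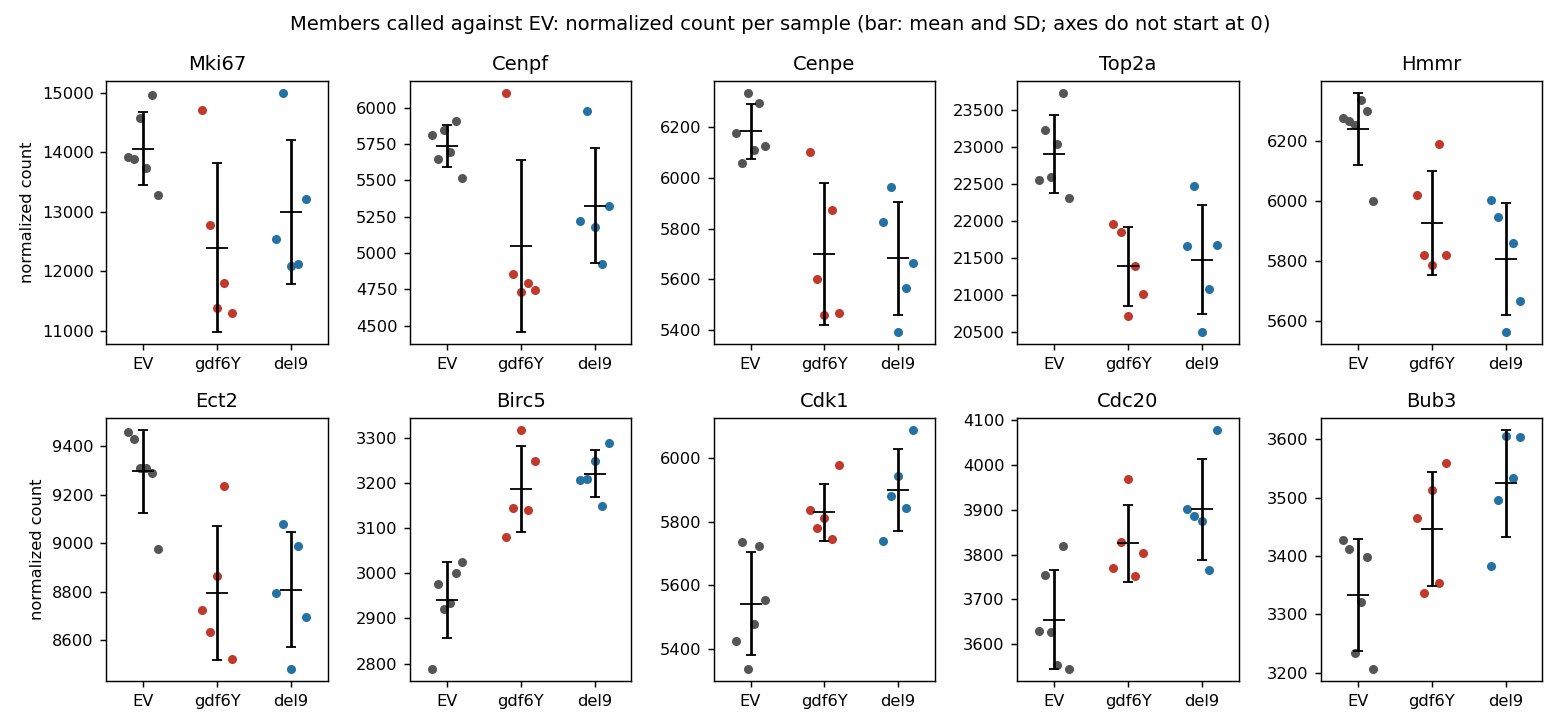
Normalized count of the 10 members called against EV in each sample, with bars for the mean and SD, on axes that do not start at 0. For *Mki67* and *Cenpf*, gdf6Y replicate 1 (14714 and 6103) and del9 replicate 2 (15001 and 5982) lie at the top of or above the EV samples and the other samples of both groups lie lower, whereas for *Birc5* all gdf6Y and del9 samples lie above all EV samples.

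The comparison of gdf6Y with del9 sets the intact gene against its mutant, and no member passed it by edgeR without a block or by DESeq2. With the replicate number as a block, *Mki67* (−0.065, adjusted p = 0.0272) and *Cenpf* (−0.076, adjusted p = 0.0431) passed in edgeR's test. These numbers did not meet the criterion for pairing given further below, and the block raised the share of all genes called from 1.01% to 2.55%. In edgeR's test 4 members had an unadjusted p-value below 0.05: *Cenpf* with −0.073 ± 0.031 (adjusted p = 0.44), *Mki67* with −0.063 ± 0.029 (adjusted p = 0.502), *Espl1* with −0.068 ± 0.032 (adjusted p = 0.523) and *Mad2l1* with 0.068 ± 0.031 (adjusted p = 0.499). The values of *Mki67* and *Cenpf* rested on single samples. Without gdf6Y replicate 1 they were −0.13 (adjusted p = 0.00131) and −0.15 (adjusted p = 0.000535), and without del9 replicate 2 they were −0.009 (adjusted p = 0.961) and −0.031 (adjusted p = 0.737). Of the 5 members called against EV in both comparisons, these were the ones whose 95% interval of the direct difference left out 0 in edgeR's model. It was −0.120 to −0.006 for *Mki67* and −0.134 to −0.011 for *Cenpf*. DESeq2, whose standard errors for these 2 genes were larger against EV, gave adjusted p-values of 0.985 and 0.973. Whether these 2 members differ between the intact gene and its mutant thus stayed undecided, as the result changed with the tool, the block and single samples. The edgeR interval was −0.075 to 0.055 for *Birc5*, −0.057 to 0.054 for *Top2a* and −0.052 to 0.070 for *Cenpe*.

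Transcript length moved with the fold changes, in the members as in other genes. Across the 40 members, log2 fold change and canonical transcript length had a Spearman correlation of −0.729 for gdf6Y against EV, −0.51 for del9 against EV and −0.414 for gdf6Y against del9, a description over genes that share the same libraries. Over 4246 other genes of like abundance it was −0.636, −0.526 and −0.15. The 2 members of 8 kb or more, *Mki67* (10270 bases) and *Cenpf* (11210 bases), had a median of −0.18 with gdf6Y and −0.11 with del9. Of the other genes of that length 58.3% and 40.2% were called lower, with medians of −0.11 and −0.062. Members under 2 kb, *Birc5* (980 bases) and *Cdc20* (1854 bases) among them, had medians of 0.051 and 0.053, where other genes of that length had 0.065 and 0.076. The libraries differed in this respect within groups as well. A trend on length fitted in each sample gave, at the length of *Mki67*, a log2 deviation of 0.019 to 0.093 in the 6 EV samples, 0.048 in gdf6Y replicate 1 and 0.040 in del9 replicate 2, and −0.133 to −0.027 in the other 8 samples. The samples with high *Mki67* and *Cenpf* were thus the ones whose long transcripts stood at the level of EV in general.

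With the trend of each sample taken out as an offset, the list of members called changed: it held 3 members for gdf6Y against EV, 0 for gdf6Y against del9 and 5 for del9 against EV. Of all genes, abundant or not, 3.22%, 1.16% and 8.08% were called. For gdf6Y against EV, *Mki67* remained lower at −0.077 ± 0.024 (adjusted p = 0.0398), while *Cenpf*, *Cenpe*, *Top2a* and *Birc5* did not pass (−0.069, −0.042, −0.064 and 0.074, with adjusted p from 0.126 to 0.553). *Cdk1* and *Bub3* were called higher instead, at 0.095 (adjusted p = 0.0109) and 0.115 (adjusted p = 0.00247). In del9 against EV the members called higher were again *Birc5*, *Cdk1*, *Cdc20* and *Bub3*, at 0.113, 0.108, 0.080 and 0.130, and of the 6 called lower *Hmmr* alone still passed (−0.091, adjusted p = 0.01). *Cdk1* (4375 bases) and *Bub3* (7274 bases) were thus higher with del9 with and without the offset, and their fold changes lay above the median of other genes of 4 to 8 kb, which was −0.012, where 8.01% of those genes were called higher. Without the offset, the call of *Bub3* with del9 depended on the normalization, as given above. Whether the length trend comes from the cells or from the libraries was not tested.

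Genes that work beside the members in the cell cycle gave calls in both directions for mitosis and mostly higher calls for S phase. With gdf6Y against EV, 5.08% of all genes were called and 20% of genes as abundant as the members. With del9 against EV these shares were 9.25% and 30%. The mitotic lists that follow had 0 to 22.2% of their genes called with gdf6Y and 9.52 to 24.2% with del9. The share of abundant genes is not matched to these lists. Some of their genes lay below the lowest member, such as *Cenpp* and *Lin52* with mean counts of 288 and 200 in EV. An excess in these lists, or its lack, therefore cannot be read from that share. Of 27 other spindle and cytokinesis genes, 6 were lower with gdf6Y against EV, led by *Cep192*, *Cit* and *Ckap5* (−0.16, −0.20 and −0.14), and with del9 4 were lower and 1 higher. With the length offset 1 of these genes was lower and none higher in each comparison with EV, and *Cep192* and *Cit* did not pass with gdf6Y (adjusted p = 0.0682 and 0.093). Of 33 other kinetochore and centromere genes, 2 were higher and 1 lower with gdf6Y (*Cenpm* at 0.17, *Ska1* at 0.14 and *Knl1* at −0.16), and 5 were higher and 3 lower with del9. The 21 other regulators of mitotic entry had none with gdf6Y and 2 higher with del9, *Mybl2* at 0.17 and *Arpp19* at 0.086. Of 17 genes of the anaphase-promoting complex, *Ube2s* and *Anapc11* were higher with gdf6Y (0.15 and 0.13) and *Anapc1* lower (−0.083), and with del9 3 were higher and none lower. Of 18 condensin and cohesin genes, 2 were lower with gdf6Y, and with del9 2 were lower and 1 higher. With the length offset, *Knl1*, *Cenpm* and *Anapc1* no longer passed with gdf6Y.

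Of 42 genes of the G1/S transition and DNA replication, 22 were higher and none lower with del9 against EV, that is 52.4%, among them *Gins2* (0.20) and *Ccnd1* (0.15), where 18.4% of genes as abundant as the members were called higher. With gdf6Y 7 of them were higher and 2 lower, *Rrm2*, a subunit of ribonucleotide reductase, at 0.25, *Pole* at −0.16 and *Cdk6* at −0.15, where 6.88% of genes as abundant as the members were called higher and 13.1% lower. With the length offset 11 were higher and 0 lower with gdf6Y, so that *Pole* and *Cdk6* did not pass (adjusted p = 0.0936 and 0.609), and with del9 22 were higher and 0 lower. The median of this list was 0.059 with gdf6Y and 0.090 with del9, beside 0.006 and 0.001 for the mitosis genes. *Rrm2* was also higher in gdf6Y than in del9 (0.15, adjusted p = 0.000334), and *Cdk6* was lower (−0.13, adjusted p = 0.0107, and 0.137 with the length offset). Of 26 genes of cell cycle arrest and the p53 response tested in gdf6Y against EV, 2 were higher and 2 lower, and of 27 tested in del9 against EV 5 were higher and 4 lower. The CDK inhibitor gene *Cdkn1a* was among those higher in both, at 0.25 and 0.27. Calls made up 15.4% and 33.3% of this list, beside 20% and 30% of genes as abundant as the members and 5.08% and 9.25% of all genes tested. Neither share is matched to the counts of the list. The G1/S list and this one were chosen with earlier results of these data known, so that their shares are no test of an excess.

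Within groups, the members varied together only weakly. After subtraction of the group means, the median correlation over the 780 pairs of members was 0.124 across the 16 samples, and 66.3% of the pairs were positive. All pairs share the same libraries, with their depth and length trend, whose part in these values was not tested. *Top2a* followed the mean of the other members most closely (r = 0.859), and *Tpx2*, *Kif11* and *Anln* came next with 0.769, 0.708 and 0.708. *Birc5*, the member with the largest rise, was the one least like the rest (r = −0.226), and *Mki67* and *Cenpf* had 0.641 and 0.555.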

How the data were processed

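Poly(A) RNA of 16 TM4 samples (6 EV, 5 gdf6Y and 5 del9) was sequenced in strand-specific libraries with unique molecular identifiers (UMIs). The authors aligned the reads to GRCm39 with STAR 2.7.10a and then removed PCR duplicates with UMI-tools. They counted uniquely mapped reads per gene with featureCounts 2.0.3, and the deposited values are these raw counts. Reads shared with near-identical copies, such as pseudogenes of *Ccnb1*, *Ccnb2* and *Kif4*, are therefore uncertain. A sixth gdf6Y and a sixth del9 sample were not analysed here. The authors state that they excluded both for lower quality, with fewer assigned and more duplicate reads than the other samples.

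Groups were compared 2 at a time, over the genes that had 1 count or more in some sample of either group, with edgeR 4.0.16 (TMM normalization, quasi-likelihood F-test, two-sided, in R 4.3.3). Adjusted p-values follow Benjamini and Hochberg over all genes tested, with a threshold of 0.05. Fold changes are the first group over the second. Normalized counts are counts scaled by effective library size. Log2 CPM used a prior count of 2, and the score has no test. RPKM and the length offset (a spline with 4 degrees of freedom per sample) used canonical transcript lengths of GENCODE M39, in which 56017 of 56748 identifiers were found. Standard errors for edgeR were derived from its test, as the absolute log2 fold change divided by the square root of F. Intervals were built from them with the t distribution and cover the model's error at 95%. The code of the test was checked on simulated counts drawn independently for each gene, without a length trend or an outlying sample. That check says nothing of calls that rest on such features. DESeq2 1.42.0, other normalizations and filters, a replicate block, the length offset and leaving out each sample were alternatives. Plots were drawn with matplotlib 3.10.9.

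The members and the other gene lists were chosen with earlier results of these data known. Per-sample values are given for members called in any comparison and for *Cdk1*, *Ccnb1*, *Plk1*, *Aurkb*, *Mki67*, *Top2a* and *Foxm1*. From other lists at most the 3 called genes with the smallest adjusted p-value in a comparison are named.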

Additional observations from a re-analysis of the deposited data

Results flagged for a closer look

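In 10 of 129 groups of values, a single sample lay farther from the rest than Dixon's 95% criterion allows, where chance gives about 6.45. The ratio of that sample's gap to the range of its group is given for each. *Cenpf* in gdf6Y had a ratio of 0.909, with a normalized count of 6103 in replicate 1 and 4733 to 4858 in the others. *Kif4* had 0.831 in del9, with 2328 in replicate 2 against 2217 to 2236, and 0.773 in gdf6Y, with 2109 in replicate 4 against 2214 to 2245. In del9, *Cdc25c* had 0.767 (1491 in replicate 1 against 1359 to 1390) and *Pttg1* had 0.734 (3043 in replicate 1 against 2751 to 2829). *Mad2l1* had 0.727 in del9, with 5165 in replicate 4 against 4911 to 4980.

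In EV, *Hmmr* had 0.75 and *Ect2* 0.645, both for replicate 6, with 6001 against 6252 to 6336 and 8976 against 9288 to 9460. *Kif2c* had 0.634 in EV, with 2681 in replicate 5 against 2715 to 2735. The total count of del9 replicate 3, at 24610000, lay below the 25650000 to 26070000 of the other del9 samples, with a ratio of 0.712.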

How the results depend on the processing

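Of 420 values of named members under alternatives other than leaving out a sample, 359 kept their direction and their side of the threshold, 19 lost a call, 18 gained one and 24 changed sign without a call. The cause was not tested. For gdf6Y against EV, the members called higher numbered 1 in the main test, 3 with DESeq2, 2 with at least 10 counts in every sample, 3 with the replicate block, 2 with the length offset and 3 with both. Those called lower numbered 4, and 8 with the replicate block and 1 with the length offset. In gdf6Y against del9, 0 members were lower, and 2 with the replicate block (*Mki67* and *Cenpf*). In del9 against EV 6 were lower, and 1 with the length offset. *Mki67* in del9 against EV also lost its call with filterByExpr (adjusted p = 0.0663) and with at least 10 counts (adjusted p = 0.0682).

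Leaving out single samples gave 1 to 2 members higher and 4 to 5 lower for gdf6Y against EV, 0 to 0 and 0 to 2 for gdf6Y against del9, and 1 to 5 and 4 to 6 for del9 against EV. The count of 2 higher came without gdf6Y replicate 4, the count of 2 lower without gdf6Y replicate 1, and the count of 1 higher, down from 4, without del9 replicate 5. The score difference was −0.015 to −0.006, −0.014 to −0.001 and −0.010 to 0.003. Without del9 replicate 4 *Cenpf* (adjusted p = 0.0646), and without replicate 3 *Top2a* (adjusted p = 0.0545), lost the call in del9 against EV.

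Sign changes concerned members that were not called. For gdf6Y against EV they were *Ccnb1* (−0.005 with the length offset, −0.012 with block and offset), *Plk1* (−0.011 and −0.015, and −0.002 to 0.021 without single samples) and *Aurkb* (−0.001 with both). For gdf6Y against del9 they were *Aurkb* (0.004 with total counts, 0.001 with at least 10 counts), *Ect2* (−0.002 with all 3 groups in one model) and *Top2a* (0.001 with DESeq2 and with its size factors, 0.007 with total counts, 0.002 with filterByExpr, 0.004 with at least 10 counts, 0 with the length offset and 0 with block and offset). Without single samples *Ccnb1* ran from 0 to 0.018, *Aurkb* from −0.024 to 0.013, *Birc5* from −0.025 to 0.002, *Cenpe* from −0.017 to 0.025, *Ect2* from −0.016 to 0.011 and *Top2a* from −0.023 to 0.013. For del9 against EV, *Ccnb1* was −0.002 with DESeq2, with its size factors and with at least 10 counts, −0.013 with total counts, −0.004 with filterByExpr, −0.003 with the block, −0.006 with the length offset, −0.014 with both and −0.007 to 0.011 without single samples. *Foxm1* was −0.006 with total counts and −0.001 to 0.021 without single samples.

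In their deviations from the group means, same-numbered samples of gdf6Y and EV correlated at 0.004 to 0.198. Those of gdf6Y and del9 correlated at 0.099 to 0.163, and those of del9 and EV at −0.028 to 0.161. The criterion for pairing was a correlation above 0.1 in every pair. It was met by 4, 4 and 2 of 5 pairs, so that the numbers were not taken as pairs in the main test. Failing it does not show that the numbers are without meaning. A sample correlated best with its own number in 6, 7 and 2 of 10 cases. With the replicate block, 821 genes were higher for gdf6Y against EV (448 without) and 289 and 372 were higher and lower for gdf6Y against del9 (155 and 106 without).

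Over all genes, 386 were lower for gdf6Y against EV with the length offset (890 without), and with block and offset 806 were higher and 586 lower. For gdf6Y against del9, 48 higher and 33 lower passed in DESeq2, 26 and 19 with filterByExpr, 25 and 19 with at least 10 counts, and 292 and 432 with block and offset, while 181 were lower with all 3 groups in one model and 59 with the newer dispersion method. Total counts gave 863 higher and 1492 lower for del9 against EV, beside 1263 and 1162.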

Other observations

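Type I interferon-stimulated genes, a list outside the cell cycle, were lower with both plasmids. Of 24 such genes, 17 were lower and none higher with gdf6Y against EV, led by *Rsad2*, *Ifit3* and *Oas3* (−0.39, −0.42 and −0.36), with a median of −0.23. With del9 against EV 20 were lower and none higher, with *Ifit3* at −0.42 and *Rsad2* at −0.35 and a median of −0.23. Of all genes, 3.38% were lower with gdf6Y and 4.43% with del9, and of genes as abundant as the mitosis genes 13.1% and 11.7%. The lower calls made up 70.8% and 83.3% of the interferon list. This list was chosen with earlier results of these data known, so that these shares are no test of an excess. Between gdf6Y and del9 none passed in edgeR's test, none had an unadjusted p-value below 0.05, none passed in DESeq2, and the median was 0.010. The list summed to 2315 to 2603 CPM in EV, 2116 to 2353 in gdf6Y and 2139 to 2296 in del9.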
